A study of Homo sapiens with 10 samples.

Results

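In HCT116 cells, 569 protein-coding promoters carried RNA polymerase II (Pol II), Larp7, Hexim1 and Cdk9 peaks but had no KAP1 peak nearby. They were chosen from the 5 peak lists themselves, so the presence of the 4 factors and the absence of KAP1 are not results. A promoter was the annotated 5′ end of a gene and 1 kb on each side, on chromosomes 1 to 22, each of the 4 factors had to overlap this window, and no KAP1 peak could lie within 2 kb of the 5′ end. The 569 were 2.96% of the 19222 coding promoters examined and 4.56% of the 12490 that carried all 4 factors (65.0% of the coding promoters). The other 11921 promoters with the 4 factors had KAP1 within 2 kb and serve as the comparison throughout.

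HCT116 is an established human colorectal carcinoma line, grown here without a treatment named in the labels, and chromatin was crosslinked with 1% formaldehyde for 10 min before immunoprecipitation. The series holds 10 libraries with 1 library per antibody, and the peak lists of 5 of them were used, those of KAP1, total Pol II, Cdk9, Hexim1 and Larp7. Without a second library of any antibody, no value has a replicate check and no p-value is given. All intervals below are 95% intervals for counting error only: exact binomial for a share, Newcombe for a difference of shares, and order statistics for a median.

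Larp7 and Hexim1 belong to the 7SK small nuclear ribonucleoprotein (snRNP), a particle that binds the elongation kinase P-TEFb and holds it inactive. Cdk9 is the kinase subunit of P-TEFb. Once released, it phosphorylates Pol II and the factors that keep it paused just downstream of the transcription start, and Pol II moves on into the gene. KAP1, the product of TRIM28, is a chromatin-bound co-regulator best known as the partner of KRAB zinc finger proteins, and the title of the series names it as a recruiter of the 7SK ribonucleoprotein. Promoters with the 7SK proteins and Cdk9 but no KAP1 peak are the ones at which these lists show the other factors without it.

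The lists held 92939 Pol II, 61312 KAP1, 184243 Larp7, 229679 Hexim1 and 120115 Cdk9 peaks, and read depth is unknown. A KAP1 peak lay within 2 kb of the 5′ end at 69.2% of coding promoters. The other factors were at 70.5% to 79.9% in the narrower window of 1 kb on each side, so these shares are not directly comparable. The labels give the cell type as endothelial, while the line is epithelial. Pol II was at the promoters of 10 of 12 colon epithelial markers, including EPCAM, CDH1 and KRT8, with a median fold of 77.7, and was not found at VIL1 or ELF3. It was at 4 of 11 matched endothelial markers (ESAM, ERG, CLDN5 and EGFL7; median fold 8.03, highest 92.4) and not at VWF, CDH5, KDR or TEK. Fibroblast markers had Pol II at 3 of 8 promoters and blood markers at 2 of 8.

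The bases just upstream of the most strongly occupied of these promoters show how varied they were. Each line holds the 200 bases before the annotated 5′ end, 5′ to 3′ on the strand of the gene, from the GRCh37 (hg19) reference. The line for H2BC12 and H2AC12 holds the 250 bases between their 5′ ends on the strand of H2AC12. Capitals mark matches, on either strand, to the TATA box (TATAAA), the CCAAT box (CCAAT), the GC box (GGGCGG) or the ETS core (CCGGAAG). They are shown because their Pol II folds were among the 12 highest of the 569.
PARP2, chr14:20811574-20811773, plus strand: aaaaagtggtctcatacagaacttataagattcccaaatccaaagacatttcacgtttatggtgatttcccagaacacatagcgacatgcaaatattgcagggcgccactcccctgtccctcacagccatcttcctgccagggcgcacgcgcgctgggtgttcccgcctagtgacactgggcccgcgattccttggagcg
H2BC12 and H2AC12, chr6:27114635-27114884, plus strand: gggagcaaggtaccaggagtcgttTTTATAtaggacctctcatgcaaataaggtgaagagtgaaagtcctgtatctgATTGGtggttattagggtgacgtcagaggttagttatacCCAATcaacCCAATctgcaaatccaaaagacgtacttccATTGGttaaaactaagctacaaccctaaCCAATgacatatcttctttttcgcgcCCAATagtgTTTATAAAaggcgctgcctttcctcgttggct
SCFD1, chr14:31091297-31091496, plus strand: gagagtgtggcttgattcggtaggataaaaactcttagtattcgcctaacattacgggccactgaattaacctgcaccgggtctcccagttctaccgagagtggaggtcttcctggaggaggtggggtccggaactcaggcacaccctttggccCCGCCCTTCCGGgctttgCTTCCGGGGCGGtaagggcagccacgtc
ZNF770, chr15:35280489-35280688, minus strand: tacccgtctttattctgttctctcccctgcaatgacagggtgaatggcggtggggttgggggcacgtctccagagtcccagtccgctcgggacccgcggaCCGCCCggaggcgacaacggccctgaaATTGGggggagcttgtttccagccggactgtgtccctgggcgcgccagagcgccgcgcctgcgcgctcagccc
FTL, chr19:49468366-49468565, plus strand: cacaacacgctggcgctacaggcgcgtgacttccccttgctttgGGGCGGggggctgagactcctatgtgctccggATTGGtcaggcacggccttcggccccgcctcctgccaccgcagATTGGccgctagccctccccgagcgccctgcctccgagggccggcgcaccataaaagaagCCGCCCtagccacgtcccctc
ABHD16A, chr6:31671134-31671333, minus strand: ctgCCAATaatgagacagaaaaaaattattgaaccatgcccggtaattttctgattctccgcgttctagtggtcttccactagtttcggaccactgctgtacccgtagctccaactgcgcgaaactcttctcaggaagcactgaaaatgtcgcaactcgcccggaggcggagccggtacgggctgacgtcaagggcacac
The PARP2 stretch held none of the 4 motifs. Between the histone genes lay 6 CCAAT matches and 3 TATAAA matches, of which a pair overlaps on opposite strands. SCFD1 had 2 ETS cores, each overlapping a GC box at its edge and FTL had 2 CCAAT and 2 GC boxes.

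The strongest Pol II peak of the set stood at PARP2, a DNA repair enzyme that is activated at DNA breaks. Its deposited fold, the authors' ratio of a peak over background, was 125 for Pol II, and 3.18 for Cdk9, 3.74 for Larp7 and 5.56 for Hexim1 in their own lists. The Pol II peak was 1191 bp wide and the nearest KAP1 peak lay 25637 bp from the 5′ end. The gene spans 14290 bp on chromosome 14 from 20811774, and a long noncoding RNA gene starts head to head with it. The core histone genes H2BC12 and H2AC12 followed, which share a Pol II peak of fold 117 and 2210 bp, with Larp7 at 5.03, Hexim1 at 7.05 and Cdk9 at 4.70. KAP1 was 7217 and 7468 bp from their 5′ ends.

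Others among the 12 highest Pol II folds belonged to genes of unrelated function. DPP3, a dipeptidyl peptidase, had a Pol II fold of 110, and SCFD1, which acts in vesicle traffic between the endoplasmic reticulum and the Golgi, had 105. The zinc finger gene ZNF770 had 103 together with the highest Hexim1 fold of the set, 16.3, and KAP1 at 2190 bp, close to the limit. SDE2, which acts in splicing and genome maintenance, had 95.7. The ferritin light chain gene FTL, whose product stores iron, had 92.0, and the lipase gene ABHD16A had 91.4. CREB3L4, a membrane-bound transcription factor, and the zinc importer gene SLC39A1 share 1 peak of 90.1. Nearest KAP1 peaks of the genes named so far ran from 2190 bp at ZNF770 to 62717 bp at SCFD1.

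The 4 highest Larp7 folds were at promoters with Pol II folds below the members' median of 23.5. They stood at TRPM1, a cation channel gene (6.83), KLRD1, a natural killer cell receptor gene (6.74), FKBP1C (6.36) and the small heat shock protein gene HSPB2 (6.34), where Pol II folds were 7.11, 7.91, 5.27 and 3.53. Cdk9 was highest at ADAMTS4, which encodes an aggrecan-cleaving protease (7.13), C12orf57 (6.79), TRPM1 (6.18) and the histone gene H2AC6 (6.13), with Pol II folds of 5.01, 44.3, 7.11 and 74.8, on both sides of that median. Hexim1 after ZNF770 was highest at CCDC7 (13.0) and BCKDK, the kinase gene that restrains branched-chain amino acid breakdown (13.0). At these genes the Pol II folds were 53.6 and 53.8.

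The 569 promoters had lower folds and narrower peaks than promoters with KAP1 in all 4 lists. The lists chose the members, so these values are a description. The median Pol II fold was 23.5 (20.1 to 25.8) against 45.3, that of Larp7 3.75 (3.65 to 3.82) against 5.00, that of Hexim1 5.40 (5.24 to 5.50) against 7.55 and that of Cdk9 3.70 (3.62 to 3.79) against 4.71. The middle 50% of the members ran from 9.49 to 41.1 for Pol II, and of the comparison from 17.4 to 74.4, so the sets overlapped widely. Pol II folds of 50 or more were found at 108 members (19.0%) against 45.8%, and folds under 10 at 154 (27.1%) against 18.5%. Median peak widths were 486 against 859 bp for Pol II, 540 against 1281 bp for Larp7, 950 against 1587 bp for Hexim1 and 433 against 1001 bp for Cdk9.

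**Figure D1:**
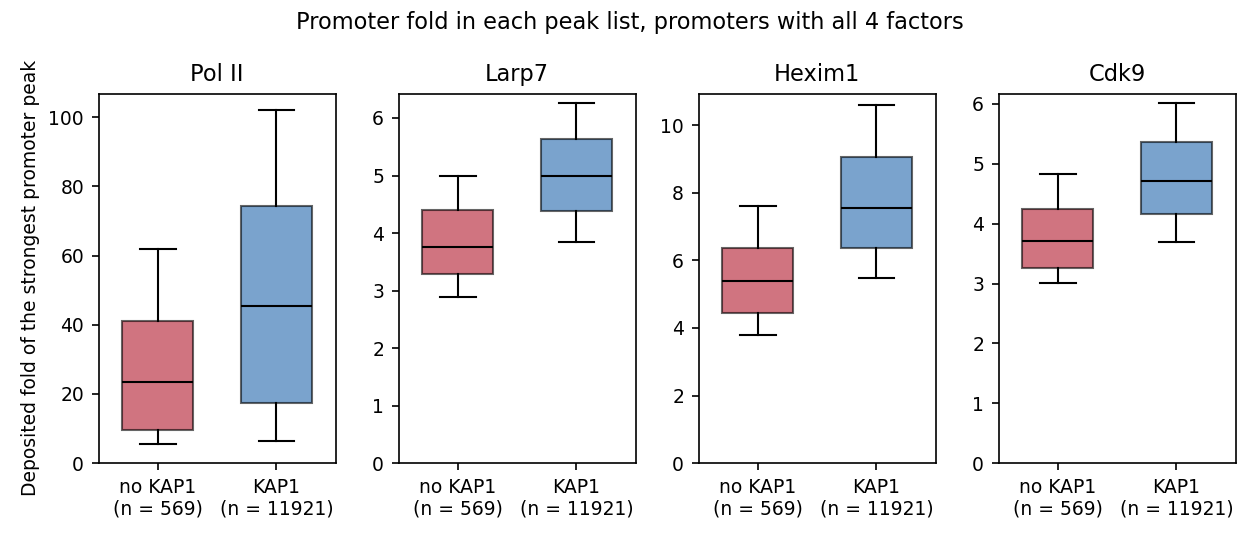
Deposited fold of the strongest promoter peak in each list (y axis, fold over background, no unit) for the 569 promoters without KAP1 and the 11921 with KAP1. Lines in the boxes are medians, boxes hold the middle 50% of promoters and whiskers run from the 10th to the 90th percentile. The members sit lower in each panel, with a Pol II median of 23.5 against 45.3.

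Promoters without KAP1 were concentrated where the 7SK proteins and Cdk9 were weakest. Four-factor promoters were split into quintiles of fold. In the lowest quintile of Larp7 fold, 15.4% (14.0 to 16.9) had no KAP1, and in the highest 0.641% (0.367 to 1.04). The share went from 15.2% to 0.480% along Hexim1 fold and from 14.5% to 0.761% along that of Cdk9. Along Pol II fold the course differed, with 6.61%, 8.73%, 3.92%, 2.56% and 0.961% from the lowest to the highest quintile. The lowest quintile of Pol II peak width held 282 of the members (11.3% of its promoters) and the highest held 7 (0.280%). Pol II peak width and fold were not separated.

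**Figure D2:**
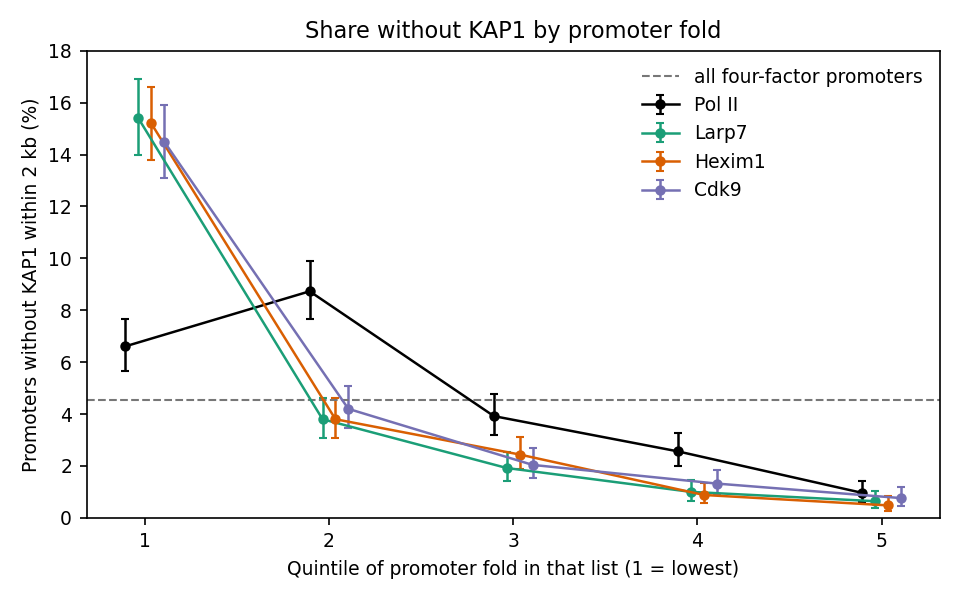
Share of four-factor promoters without KAP1 within 2 kb (y axis, percent) in quintiles of the promoter fold of each list (x axis, from lowest to highest). Points are shares, bars exact 95% intervals, and the dashed line marks 4.56%. The share exceeds 14% in the lowest quintile of Larp7, Hexim1 and Cdk9 fold and is under 1% in the highest quintile of each list.

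Nearly all members had a factor with no promoter peak at a stricter threshold, and so did most four-factor promoters with KAP1. Of the 12490 four-factor promoters, 2555 kept all 4 factors at a −log10 q of at least 5, which 4.42% of Cdk9 peaks reached. When Pol II, Larp7, Hexim1 and Cdk9 peaks had to reach a −log10 q of 5 and the whole KAP1 list was kept, 6 of 2555 four-factor promoters had no KAP1 (0.235%, 0.0862 to 0.510). These were C12orf57, C16orf46, MAB21L1, MRRF, RBM18 and ZCCHC4, with Pol II folds from 4.86 at MAB21L1 to 62.9 at C16orf46. C12orf57 is in the naming rule and the other 5 are named here after their values were seen. MRRF, the mitochondrial ribosome recycling factor gene, and RBM18 are a head-to-head pair with 1 Pol II peak. With the same threshold also on KAP1, which 14.0% of KAP1 peaks reached, 689 of 2555 had no KAP1 peak that passed (27.0%). Only these 6 were among the 569, and the rest of the 689 had a KAP1 peak below the threshold. With 20000 peaks per list, 384 of 3658 had no KAP1 peak of the shortened list (10.5%), of which 10 were among the 569.

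The nearest KAP1 peak lay at a median of 13092 bp (11699 to 15695) from the members' 5′ ends. It was 2 to 5 kb away at 131 members (23%), 5 to 10 kb at 107 (18.8%), 10 to 50 kb at 252 (44.3%) and over 50 kb at 79 (13.9%). Just past the limit stood SUPT6H, which encodes an elongation factor and histone chaperone (2001 bp), the circadian clock gene PER1 (2003 bp) and the histone acetyltransferase gene KAT8 (2039 bp). Just within it, and so not members, were SDF2 (1992 bp), ENSG00000257390 (1966 bp), C17orf75 (1955 bp) and GPR162 (1939 bp). SDF2 and SUPT6H start 9 bp apart, share a Pol II peak of fold 24.3 and fall on opposite sides of the limit. Pol II folds of these members were 24.3, 32.7 and 6.72, and of the 4 excluded promoters 24.3, 4.22, 21.3 and 49.0.

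At the other end, KAP1 was 937071 bp away from ANKRD20A3, 415058 bp from LRP1B, a lipoprotein receptor family gene, 395713 bp from LYPLAL1 and 390319 bp from TMEM161B. Their Pol II folds were 13.2, 7.94, 75 and 19.6. A KAP1 peak overlapped the promoter's own Pol II peak at 1 member, BTBD19, named here after its values were seen, where the 2158 bp Pol II peak had a fold of 67.5.

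Some members had KAP1 at another start of the same gene. At 141 of the 569 (24.8%, 21.3 to 28.5) a KAP1 peak lay within 2 kb of the start of another annotated transcript. The canonical transcript began over 2 kb from the gene's 5′ end at 84 of 565 members with one (14.9%) against 8.97% of promoters with KAP1, a difference of 5.90 points (3.15 to 9.11). PER1 is an example, with its canonical start 4102 bp from the 5′ end and a Pol II fold of 32.7 at the 5′ end. SLC39A1 (4647 bp), KAT8 (3175 bp) and UBE2D3 (41345 bp) likewise had KAP1 near another start. At PARP2, both histone genes, SCFD1, ZNF770, SDE2, FTL and ABHD16A no annotated start had KAP1 within 2 kb.

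Of 18 gene lists, replication-dependent histone genes had the highest share of members. Their transcripts end in a stem-loop instead of a poly(A) tail and supply histones for new DNA. Of 26 histone promoters with the 4 factors, 7 had no KAP1 (26.9%, 11.6 to 47.8), against 4.56% of all four-factor promoters. They were H2BC12 and H2AC12 (Pol II fold 117), H3C10 (89.0), H2AC6 and H2BC4 (74.8), and H2AC14 and H2BC14 (32.2), all on chromosome 6. Of the 7, 6 are in head-to-head pairs that share peaks, so they stand for 4 Pol II peaks. Larp7 folds were 5.03, 3.30, 3.59 and 3.62 at the 4 sites and Hexim1 folds 7.05, 5.87, 7.17 and 5.34. Their median Pol II fold was 74.8, against 101 at the histone promoters with KAP1.

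Several lists of the translation and RNA machinery also had members. Mitochondrial ribosomal protein genes were members at 8 of 57 four-factor promoters (14.0%, 6.26 to 25.8), led by MRPS16 (Pol II fold 59.8), MRPL51 (47.9), MRPL3 (30.5) and MRPL10 (30.4). Splicing factor genes were members at 8 of 62 (12.9%, 5.74 to 23.9). They included SNRPG, a core protein of the spliceosomal snRNPs (87.7), PRPF4 (53.9), SRSF11 (38.7) and SF3B4, a subunit of the U2 snRNP (31.7). Aminoacyl-tRNA synthetases had 4 of 32 (12.5%, 3.51 to 29.0), all with Pol II folds under 25: NARS2 (24.7), TARS1 (18.8), LARS2 (16.6) and LARS1 (14.2). Cytosolic ribosomal protein genes had 6 of 58 (10.3%, 3.89 to 21.2), with RPL29 at 65.8, RPL37A at 56.0 and RPS27 at 54.4. Translation initiation factors had 3 of 48 (6.25%, 1.31 to 17.2; EIF2B3, EIF2S1 and EIF3E, with Pol II folds from 13.0 to 21.4). Of these intervals, those of the histone, mitochondrial ribosomal and splicing lists lay above 4.56%, with no adjustment for having looked at 18 lists. They count each promoter as separate, although most of the histone members share peaks in pairs, so the histone interval is too narrow.

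Genome maintenance, proteasome and oxidative phosphorylation lists were represented by a few genes each, and all their intervals include the 4.56% of all four-factor promoters. DNA repair genes were members at 5 of 38 promoters (13.2%, 4.41 to 28.1): PARP2 (125), BRCA2, which acts in homologous recombination (58.0), FANCI of the Fanconi anemia pathway (46.3), TP53BP1, a double-strand break factor (42.9), and the base excision nuclease gene APEX1, which has a Pol II fold of 38.0. Mitosis genes had 3 of 28 (10.7%, 2.27 to 28.2), the condensin genes SMC2 (50.4) and NCAPD2 (47.9) and the cohesin protector gene SGO1 (32.6). DNA replication genes had 2 of 35 (5.71%, 0.700 to 19.2), the primase gene PRIM1 (44.8) and RPA2 (22.1), which encodes a single-strand binding subunit. Proteasome genes had 2 of 33 (6.06%, 0.743 to 20.2), PSMC6 at 24 and PSMB4 at 19.5. Oxidative phosphorylation genes had 2 of 54 (3.70%, 0.452 to 12.7), NDUFA3 at 29.8 and ATP5MC1 at 14.1.

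Lists of the transcription machinery had shares near the background, and 4 lists of inducible genes had no members. Among Pol II initiation and Mediator genes there were 2 of 52 (3.85%, 0.469 to 13.2), TAF7 (75.4) and MED19 (59.8). Among elongation, 7SK and P-TEFb genes there was 1 of 30 (3.33%, 0.0844 to 17.2), SUPT6H (24.3). None of 30 immediate early genes with the 4 factors was a member (exact interval 0 to 11.6%). Nor was any of 17 NF-kB inducible genes (0 to 19.5%), 21 heat shock and chaperone genes (0 to 16.1%) or 20 p53 targets (0 to 16.8%). These intervals all include 4.56%, so a lower share than that of all four-factor promoters was not detectable with so few genes.

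Zinc finger genes, some of whose products contain a KRAB domain and recruit KAP1, stood close to the background. They were taken by gene symbol (ZNF, ZFP, ZSCAN and ZKSCAN), and those with a KRAB domain were not separated from the others. Of 380 zinc finger promoters with the 4 factors, 18 had no KAP1 (4.74%, 2.83 to 7.38), led by ZNF770 (103), ZNF628 (84.0), ZNF518A (76.6) and ZNF33B (68.7). Among 35 symbol families, solute carriers had 4 of 205 (1.95%, 0.534 to 4.92), SLC39A1, SLC25A17, SLC30A7 and SLC48A1. TMEM genes had 9 of 174 (5.17%), CCDC genes 8 of 91 (8.79%, 3.87 to 16.6) and FAM genes 5 of 108 (4.63%). Protein phosphatase subunits had 0 of 57 (0 to 6.27%) and USP deubiquitinases 0 of 40 (0 to 8.81%). Keratins had 4 of 14 (28.6%, 8.39 to 58.1). Of these, KRT80 had a Pol II fold of 68.2, and KRT83, KRT33A and KRT5 had 6.33, 5.27 and 3.24, near the low end of the Pol II list.

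**Figure D3:**
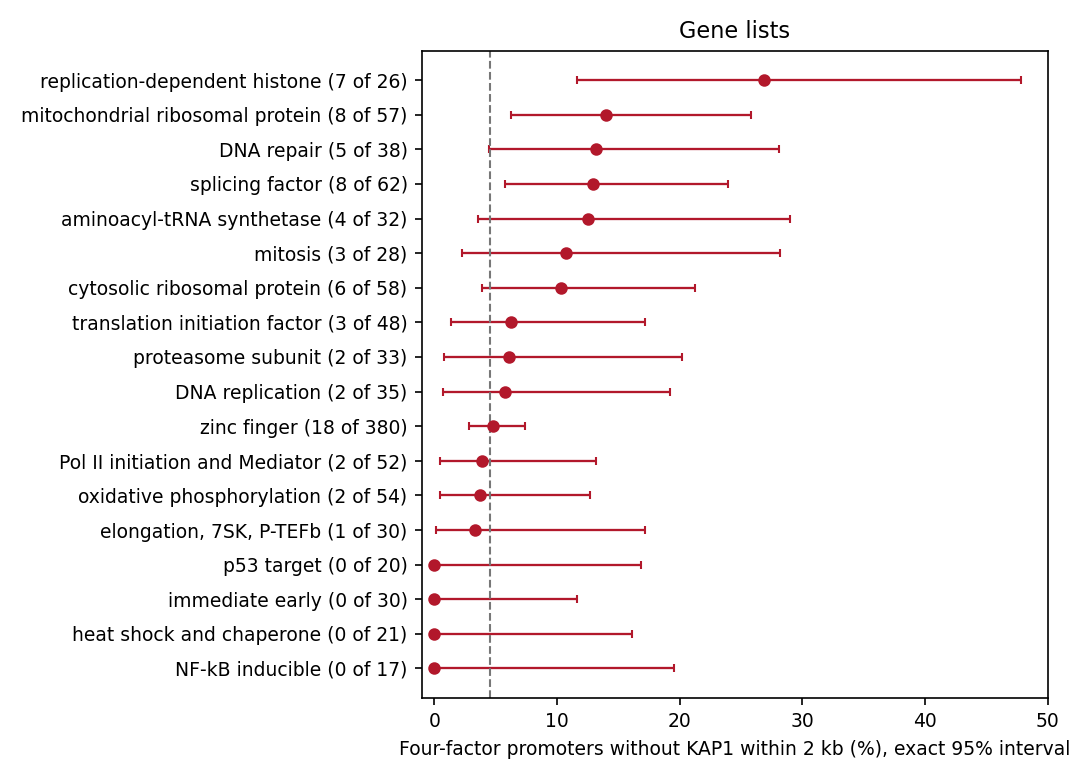
Share of four-factor promoters without KAP1 within 2 kb in each gene list (x axis, percent; counts in brackets). Points are shares, bars exact 95% intervals, and the dashed line marks the 4.56% of all four-factor promoters. Histone genes are highest at 26.9%, and the 4 lists at the bottom have 0 members.

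Genes of the set were shorter than those with KAP1 at their promoters. The median length was 26803 bp (23821 to 29532) against 31972 bp (30798 to 33183), and it did not differ from that of all coding genes (27567 bp) beyond the intervals. The difference lay in the long classes: 8.79% of members spanned 100 to 200 kb against 12.1% (difference -3.30 points, -5.44 to -0.627), and 5.62% spanned 200 kb or more against 8.24% (-2.61, -4.30 to -0.355). Genes of 5 to 20 kb were more frequent, at 30.8% against 26.7% (4.02 points, 0.282 to 8.01). Genes under 5 kb were 9.84% against 10.7%, and their difference of -0.820 points (-3.08 to 1.96) did not exceed the counting error. Single-exon genes were 4.07% against 3.10% (0.966 points, -0.416 to 2.95). The gap varied along Pol II fold. Median lengths of members and of genes with KAP1 were 22364 and 33424 bp in the lowest quintile, 28550 and 28786 bp in quintile 2, which holds 218 members, and 35822 and 34165 bp in quintile 3. They were 26276 and 34694 bp in quintile 4 and 11794 and 28979 bp in the highest. No gap was seen when KAP1 had to be over 5 kb away, with 31846 bp for the 438 remaining promoters against 31479 bp.

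The longest members were LRP1B (1899594 bp), ANKS1B (1258480 bp), ENSG00000285713 (887473 bp), the adhesion receptor gene ADGRV1 (635094 bp), the GTPase regulator gene ARHGAP24 (527519 bp) and the carbohydrate kinase gene FGGY (514010 bp). Their Pol II folds ran from 7.38 at ARHGAP24 to 46.0 at FGGY. ENSG00000285713 and ADGRV1 shared their Pol II peaks with the divergent genes ABCE1 and LYSMD3. The shortest were H2AC12 (457 bp), H2BC14 (468 bp), H2AC14 (476 bp), the keratin-associated protein gene KRTAP9-6 (483 bp), H2BC12 (495 bp) and SF3B5 (690 bp), which encodes a small subunit of the U2 snRNP. Pol II folds of the shortest were 117, 32.2, 32.2, 8.42, 117 and 15.0.

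**Figure D4:**
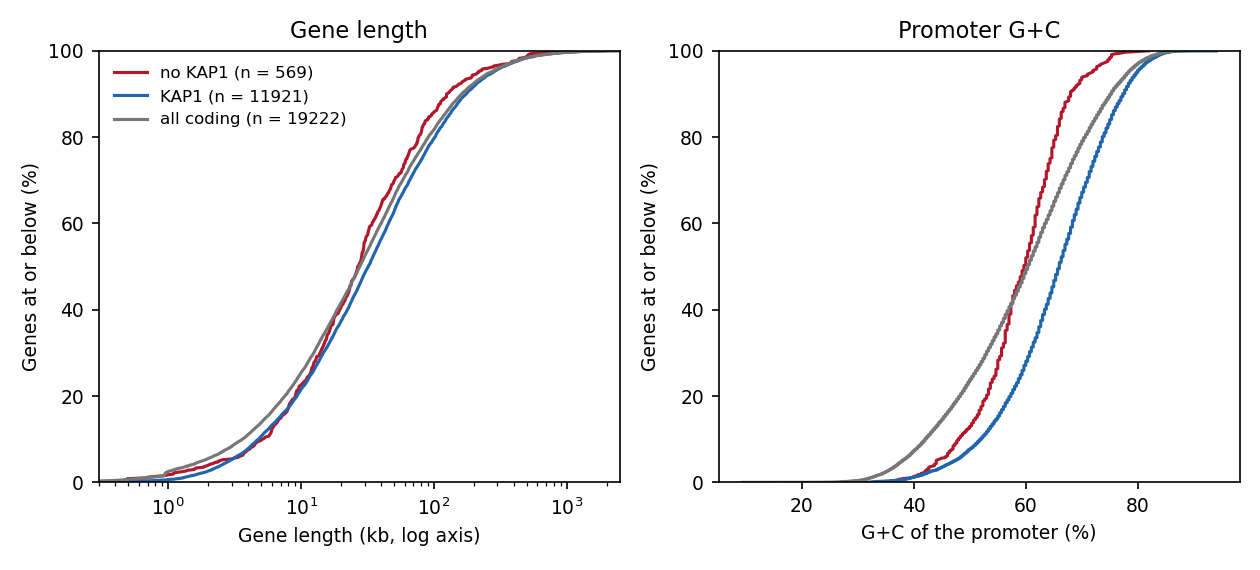
Cumulative share of genes (y axis, percent) by gene length (left, kb on a log axis) and by G+C of the promoter from 250 bases before to 50 after the 5′ end (right, percent) for the 569 members, the 11921 promoters with KAP1 and all 19222 coding promoters. Median lengths are 26803, 31972 and 27567 bp, and median G+C is 59.7%, 66.0% and 60.3%.

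Pol II inside the gene was less frequent in the set. The body began 2 kb downstream of the 5′ end and ran to the gene's end, and genes shorter than 4 kb were left out. A Pol II peak lay in the body of 325 of 526 members (61.8%, 57.5 to 66.0) and of 7770 of 10981 genes with KAP1 (70.8%, 69.9 to 71.6), a difference of -8.97 points (-13.3 to -4.83). Over all four-factor promoters the share was 70.3%, and over all coding genes of that length 63.5%. Counting only peaks over 1 kb from any annotated start, the shares were 50.2% and 59.4%, a difference of -9.18 points (-13.5 to -4.82). The median share of the body covered by Pol II peaks was 0.670% (0.438 to 1.08) against 1.08% (1.01 to 1.18), and the median number of body peaks 1 against 2. In the 3 kb past the 3′ end Pol II was at 39.9% of members and 43.1% of the comparison, a difference of -3.20 points (-7.24 to 0.976) that did not exceed the counting error.

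The difference in body Pol II ran in opposite directions along promoter Pol II fold. In the lowest quintile of fold, 103 of 147 members had body Pol II (70.1%, 62.0 to 77.3), against 57.9% (55.8 to 60.1) of genes with KAP1. In quintile 2 the members were lower, at 58.9% (51.9 to 65.7) against 68.8% (66.8 to 70.8). In quintile 3 the intervals overlapped, with 63.4% (52.8 to 73.2) against 72.8% (70.9 to 74.6). In quintile 4 the shares were 57.4% (44.1 to 70.0) and 75% (73.1 to 76.7). In the highest quintile, 6 of 18 members had body Pol II (33.3%, 13.3 to 59.0), against 78.0% (76.2 to 79.6). Averaged within deciles of Pol II fold, the difference was -5.54 points (-9.77 to -1.31).

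**Figure D5:**
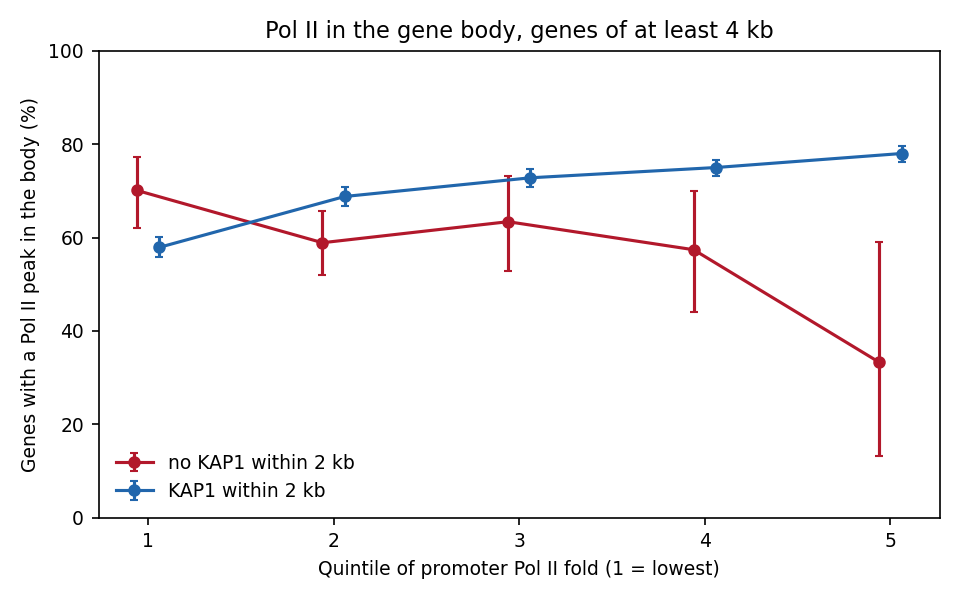
Share of genes, 4 kb or longer, that had body Pol II (y axis, percent) in quintiles of promoter Pol II fold (x axis, from lowest to highest), for members and for four-factor promoters with KAP1. Points are shares and bars exact 95% intervals. Members run from 70.1% in the lowest to 33.3% in the highest quintile, and genes with KAP1 from 57.9% to 78.0%.

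The 18 strongest promoters can be named. Body Pol II was found at PARP2 (1 peak, covering 1.56% of the body), DPP3 (3 peaks, 2.40%), ZNF770 (2 peaks, 6.17%), SLC39A1 (4 peaks, 20.3%), UBE2D3 (3 peaks, 3.01%) and ZNF628 (2 peaks, 62.5%). It was not found at SCFD1, which spans 115404 bp, nor at SDE2, ABHD16A, CREB3L4, SNRPG or CISD2. The other 6 without it, named here after their values were seen, were KLK15, NRAS, B4GALT3, AGA, DEPDC1 and AUNIP. SLC39A1 and CREB3L4 share a promoter peak and differ in this respect, as do UBE2D3 and CISD2, and the canonical starts of SLC39A1 and UBE2D3 lie within their bodies as defined here.

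Across the set, the bodies most covered by Pol II were short. The share covered was 93.8% at DPP7, a lysosomal peptidase gene of 7768 bp, 77.8% at MXRA8 (9089 bp), 76.4% at LGALS1, which encodes galectin-1 (4167 bp), 70.1% at CLDN5 (4522 bp), 62.5% at ZNF628 (7871 bp) and 58.1% at PRSS53 (6192 bp). At DPP7, MXRA8 and CLDN5 the canonical transcript starts 3576, 3222 and 3135 bp from the 5′ end, inside the body, and KAP1 lay near another start. At LGALS1 and ZNF628 the canonical transcript starts at the 5′ end. The least covered bodies with a peak were LRP1B (0.00885%), SAMD12 (0.0390%), ANKS1B (0.0675%) and SPOCK3 (0.0677%), of which SAMD12, the shortest, spans 432658 bp.

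Members with KAP1 near another start of the gene mostly had body Pol II. Of 139 such members of at least 4 kb, 127 did, beside 61.8% of all members and 70.8% of genes with KAP1. Another start can lie inside the body as defined here, and a Pol II peak at that start then counts as body Pol II. The high share thus follows in part from the definition. Larp7 and Hexim1 were also found less often in the bodies of members, Larp7 in 86.5% against 91.3% (-4.77, -8.0 to -2.06) and Hexim1 in 91.1% against 94.3% (-3.20, -5.97 to -1.0). For Cdk9, with 79.7% against 82.7%, the difference of -3.02 points (-6.74 to 0.277) did not exceed the counting error. KAP1 itself had a peak in the body of 270 of 526 members (51.3%) against 63.3% of genes with KAP1 at the promoter (-12.0, -16.4 to -7.67). A KAP1 peak that crosses the 2 kb limit can count only for the comparison, so this difference follows in part from the rule.

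By gene length, body Pol II was at 58.9% of members of 5 to 20 kb against 70.2% (-11.3 points, -18.9 to -4.10) and at 62.5% of those of 20 to 100 kb against 69.8% (-7.26, -13.5 to -1.41). In longer genes the differences did not exceed the counting error, with 70.0% against 74.4% at 100 to 200 kb (-4.39, -18.3 to 6.75) and 68.8% against 75.5% at 200 kb or more (-6.71, -24.2 to 6.88). The classes rest on 50 and 32 members.

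Members often stood head to head with another coding gene. The 5′ end of a coding gene on the opposite strand lay within 1 kb, on either side, at 122 members (21.4%, 18.1 to 25.0), against 17.0% (16.4 to 17.7) of promoters with KAP1, 17.2% of all four-factor promoters and 13.5% of all coding promoters. The difference from promoters with KAP1 was 4.40 points (1.16 to 8.02). The nearest such 5′ end was upstream at 81 members (14.2% against 10.7%, 3.58 points, 0.890 to 6.74). It was downstream at 41, where the genes overlap at their 5′ ends (7.21% against 6.38%, 0.822 points, -1.08 to 3.28). The difference for both sides was 3.02 points (0.340 to 6.27) with 1 gene per Pol II peak and 1.98 points (-1.97 to 6.10) when neighbours of any annotated type were counted, and it turned to -2.74 and -1.15 points under the stricter threshold on all lists and with equal list length. Of the 122 neighbours, 114 were members too, 2 had KAP1 within 2 kb of their own 5′ end and 6 lacked KAP1 and at least 1 of the 4 factors. The windows of such neighbours overlap, so their joint membership follows in large part from the rule. At 76 members the nearest divergent start was that of a long noncoding RNA gene.

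Joint membership gave at least 57 head-to-head pairs, overlapping ones included, and each of the 57 had 1 shared Pol II peak. The count leaves out TMX2 with MED19 and ANAPC10 with ABCE1, which also share a peak and are named here after their values were seen. After H2AC12 and H2BC12, 251 bp apart, the strongest were CREB3L4 and SLC39A1 (650 bp apart, Pol II fold 90.1), CISD2 and UBE2D3 (78 bp, 88.2), and OPA1 and ATP13A4 (33 bp, 77.1). CISD2 encodes an iron-sulfur protein of the endoplasmic reticulum and outer mitochondrial membrane, UBE2D3 a ubiquitin-conjugating enzyme, and OPA1 the fusion protein of the inner mitochondrial membrane. At CISD2 and UBE2D3 the Larp7, Hexim1 and Cdk9 folds were 3.31, 6.31 and 3.44, and the nearest KAP1 peak lay 41380 bp from UBE2D3. At OPA1 and ATP13A4 they were 4.31, 8.36 and 3.20. KAP1 was 121535 bp from OPA1. Further pairs held members of the lists above: BRCA2 with ZAR1L (277 bp), NCAPD2 with MRPL51 (485 bp), PRPF4 with CDC26 (70 bp), TP53BP1 with MAP1A (230 bp) and PRIM1 with HSD17B6 (213 bp). Because of shared peaks the 569 promoters rest on 498 distinct Pol II peaks, and 137 members share theirs with another member.

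Members also lay closer to other coding genes. The nearest other coding 5′ end was at a median of 15912 bp (13010 to 18985) against 23026 bp (21863 to 23974), which includes the head-to-head neighbours. Where that neighbour was over 5 kb away, it had KAP1 within 2 kb at 273 of 391 members (69.8%, 65.0 to 74.3) and at 75.4% of the comparison, a difference of -5.60 points (-10.4 to -1.16). Among all coding promoters with such a neighbour the share was 65.8%. At DPP3 the neighbour MRPL11, 13275 bp away, had KAP1, at SCFD1 the neighbour G2E3 did, at 63133 bp, and at PARP2 the neighbour CCNB1IP1, at 10303 bp, did not. The 5′ end lay inside another coding gene at 22% of members and 20.6% of the comparison (1.42 points, -1.87 to 5.07). By chromosome, members made up from 0.758% of four-factor promoters on chromosome 21 (1 of 132, 0.0192 to 4.15) to 6.68% on chromosome 14 (27 of 404, 4.45 to 9.57). The share was 6.53% (4.75 to 8.73) on chromosome 6, which holds the histone members, and 6.41% (4.64 to 8.59) on chromosome 12. No adjustment was made for the number of chromosomes looked at.

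Members had less G+C at the promoter than promoters with KAP1. From 250 bases before to 50 after the 5′ end, median G+C was 59.7% (58.7 to 60.7) against 66.0% (65.7 to 66.0) and 60.3% over all coding promoters. Members made up 8.41% of four-factor promoters in the lowest quintile of G+C and 0.721% in the highest. The ratio of observed to expected CpG had a median of 0.761 (0.739 to 0.787) against 0.815 (0.810 to 0.820), and it was under 0.5 at 21.8% against 14.4% (7.37 points, 4.11 to 11.0). With the −log10 q threshold of 5 on all lists, however, median G+C was 66.0% at promoters where no KAP1 peak reached it and 68.0% at those where one did. Most of the former had a weaker KAP1 peak within 2 kb.

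Of 8 short motifs searched on both strands of the same stretch, the GC box, GGGCGG, differed most. It occurred at 52.5% of members, 70.5% of promoters with KAP1 (-18.0 points, -22.2 to -13.8) and 52.4% of all coding promoters. The CCAAT box was at 39.7% against 33.3% (6.42 points, 2.40 to 10.6) and 35.5% of all, and the ETS core, CCGGAAG, at 20.4% against 14.4% (5.94 points, 2.77 to 9.50) and 11.9% of all. TATAAA was at 6.50%, 5.99% and 11.0%, the E-box CACGTG at 11.2%, 9.76% and 8.19%, and the AP-1 site TGANTCA at 4.57%, 3.93% and 6.38%. The YY1 core GATGGCG was at 6.33%, 5.44% and 4.54%, and GCGCATG, part of the NRF1 site, at 7.91%, 6.44% and 5.14%. For the last 5 the interval of the difference from promoters with KAP1 included 0. Base composition moved with these shares, and its part in them was not tested.

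TATAAA stood 50 to 16 bases before the 5′ end on the strand of the gene at 10 members (1.76%, 0.846 to 3.21), against 1.60% of promoters with KAP1 and 3.19% of all coding promoters. H2AC12, H2BC12, H2AC14, H3C10 and KRT33A were among them. The other 5, named here after their values were seen, were KRTAP4-7, KRTAP4-12, KRTAP4-1, TACR3 and FGF6, with Pol II folds between 4.18 and 10.0. The histone promoters with this element had folds of 32.2 to 117. The H2BC12 and H2AC12 stretch printed above holds such a match near each of its ends.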

How the data were processed

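ChIP-seq peak lists of 5 HCT116 libraries were used. The submitters' processing notes show that the aligner was Bowtie 1.1, the build hg19 and the peak caller MACS2, whose version they do not name. Which control was used, and with what settings, is not given in the sources used here. Pol II peaks have the narrow layout and the others the broad layout. The deposited fold (a ratio of a peak over background) was used within its own list, and the −log10 of p and q, as deposited, for stricter lists. The deposited summit offset placed the Pol II peak, and the deposited score was not used. The Input, H3K27ac, H3K4me1, H3K4me3 and Ser5P Pol II libraries were not analysed here.

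Genes came from GENCODE release 44 on GRCh37, and promoter sequence from the GRCh37 genome, whose chromosome ends no peak passed. A factor was counted at 1 bp of overlap or more, and the fold at a promoter is that of its strongest peak. Work was done in Python 3.11.15 with numpy 2.4.6, pandas 2.3.3, scipy 1.17.1, pysam 0.24.0 and matplotlib 3.10.9, and the interval and overlap code was tested on simulated data.

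The members, the 18 gene lists and the 35 symbol families were chosen with earlier results of these data known. The patterns of some families were narrowed once the gene names were at hand. The named members are the 12 of highest Pol II fold, the 4 highest for Larp7, Hexim1 and Cdk9, the 6 longest and 6 shortest, the 6 most and 4 least covered bodies, the 4 nearest to and 4 farthest from KAP1, the 4 promoters just within the limit, the 4 strongest pairs, and up to 4 members of each list and larger family, without a few that are not reported here. Alternatives changed the peak threshold, list length, KAP1 distance, window, start used, peak middle, genes per peak, body and neighbour definitions. The outcomes over deciles of Hexim1 fold and for genes with the canonical start within 500 bp were added after seeing the data.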

Additional observations from a re-analysis of the deposited data

Results flagged for a closer look

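Chromosome X lay outside the rule for the set. Of 868 coding promoters on it, 263 carried Pol II, Larp7, Hexim1 and Cdk9, and 57 of these had no KAP1 within 2 kb (21.7%, exact interval 16.8 to 27.1), against 4.56% on chromosomes 1 to 22. The highest Pol II folds among the 57 were at the coagulation factor gene F8 (115), the cohesin gene SMC1A and its neighbour RIBC1 (105), ENOX2 (104), SYAP1 (96.6) and the RNA helicase gene DDX3X (91.1). Genes from X were left out of every other value here. They are named after their values were seen. The difference was not tested against fold, copy number or read depth.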

How the results depend on the processing

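No paired analysis was possible because each antibody has 1 library. The share without KAP1 (4.56%) was 27.0% with a −log10 q of at least 5 in all lists, 0.235% (6 promoters) with this threshold on all but KAP1, 10.5% with 20000 peaks per list, 5.38% and 3.51% with KAP1 over 1 and 5 kb away, 3.43% with any transcript start and 5.10% by peak middles. For these first 3 lists in turn, median Pol II fold was 57.0, 48.4 and 46.2, and median G+C 66.0%, 65.8% and 66.7%. For the members as first defined, median G+C over 500 bases on each side was 57.1%, against 63.9% at promoters with KAP1. Median length was 30142 bp at the threshold on all lists, 31846 bp with KAP1 over 5 kb away, and 22364, 28550, 35822, 26276 and 11794 bp in quintiles 1 to 5 of Pol II fold. The body Pol II difference, in points, was -5.54 when matched on Pol II fold deciles. It was -37.0 (-65.3 to -0.0483) for the 6 promoters without C12orf57, whose gene of 3026 bp is too short for a body. It was -15.4 with KAP1 over 5 kb away and -19.9 for any transcript start. The last of these leaves out members with KAP1 near another start, of which 127 of 139 had body Pol II, so its size follows in part from that choice. The difference was positive in the lowest quintile of Pol II fold (70.1% against 57.9%), the lowest and highest of Pol II width and the highest of Larp7 and Hexim1 fold. Chosen after seeing the data, deciles of Hexim1 fold gave -8.19 points and canonical starts within 500 bp -11.4. The divergent neighbour difference reversed to -2.74 (threshold on all lists) and -1.15 points (equal length), both with intervals that include 0. For the 6 promoters it was 16.4 points (-7.28 to 53.1). The cause of these changes was not tested. Which promoters lack KAP1 thus depends on the thresholds of lists whose read depth is unknown. A missing KAP1 peak means that none was called, and the share that a deeper KAP1 library would leave is unknown.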

Other observations

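Peaks at the members were shifted less far downstream of the annotated 5′ end at the median, counting upstream positions as negative. The Pol II summit was a median of 63.0 bp downstream (50.0 to 76.0), against 105 bp (103 to 108) at promoters with KAP1, and 10% of summits lay upstream of -306 and -265 bp. Middles of Larp7 peaks were at 66.0 against 204 bp, of Hexim1 peaks at 46.0 against 189 bp and of Cdk9 peaks at 71.0 against 202 bp. Peaks at the members were also narrower, and the part of width in these distances was not tested.

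Members known by an Ensembl identifier only were 20 of 569 (3.51%), against 2.75% of promoters with KAP1, a difference of 0.763 points (-0.503 to 2.64).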
